A study of Mus musculus with 6 samples.

Results

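The genes described here encode the proteoglycan, tenascin and link protein scaffold of the hyaluronan matrix of the brain, together with a synthase that makes hyaluronan itself. The set was chosen by name and holds 10 of the 18058 genes in the deposited table: the lecticans Acan, Bcan, Ncan and Vcan, the tenascins Tnr and Tnc, the link proteins Hapln1, Hapln2 and Hapln4, and the hyaluronan synthase Has3. All 10 passed the filter on low values, as did 16762 genes in all. RNA came from snap-frozen whole brainstem of 1-month-old mice, 3 wild type (WT, C57BL/6J) and 3 Rag1-/- animals of the strain B6.129S7-Rag1tm1Mom/J, each library from its own mouse. The labels name no treatment and no sex, and the study as a whole used both sexes. Rag1 is needed for the rearrangement of antigen receptor genes, so mice without it lack mature T and B cells. The RNA sequencing comparison addressed which brainstem transcripts differ between mice with and without these cells.

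Hyaluronan is a long sugar chain that is made at the cell surface by hyaluronan synthases and extruded into the space between cells. Lecticans, which carry chondroitin sulphate chains, bind hyaluronan at one end, link proteins hold that bond in place, and tenascin-R ties the other ends of neighbouring lecticans together. Condensed around the cell body and proximal dendrites of certain neurons, many of them fast-spiking, this mesh is called a perineuronal net. A looser form fills the rest of the neuropil, and a further specialised form surrounds nodes of Ranvier, which are frequent in the heavily myelinated brainstem.

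The sequences just upstream of the start sites of Bcan and Tnc are shown, because Bcan was the gene whose genotype groups did not overlap and Tnc the gene with the strongest correlation with brainstem neuron markers across the libraries. Both are taken from RefSeq on GRCm38.p6, run 5′ to 3′ on the strand of the gene, cover the 250 bases before the start site given in the deposited table, and overlap no exon of the GENCODE annotation. The bases just after the Tnc start site occur in an annotated transcript of the gene, and those after the Bcan start site do not. Capitals mark matches to a CCAAT box (CCAAT), a GC box (GGGCGG) or a TATA box (TATAAA), searched on both strands, and no matches overlapped.
Bcan, chr3:88000357-88000606, minus strand: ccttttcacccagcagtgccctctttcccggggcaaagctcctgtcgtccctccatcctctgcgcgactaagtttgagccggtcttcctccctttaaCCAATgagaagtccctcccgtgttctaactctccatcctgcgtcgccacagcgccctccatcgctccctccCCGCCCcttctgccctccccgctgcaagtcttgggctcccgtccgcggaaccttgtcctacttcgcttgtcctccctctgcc
Tnc, chr4:64047016-64047265, minus strand: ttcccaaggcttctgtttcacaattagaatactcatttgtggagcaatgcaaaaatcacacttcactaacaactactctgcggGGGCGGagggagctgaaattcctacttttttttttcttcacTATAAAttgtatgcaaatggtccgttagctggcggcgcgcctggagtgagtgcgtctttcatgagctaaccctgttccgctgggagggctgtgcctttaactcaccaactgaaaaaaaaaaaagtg

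The Bcan stretch was 62.0% G and C with 16 CpG dinucleotides, and the Tnc stretch 44.8% with 8. Over 32851 windows of 250 bases in the same RefSeq set, the median was 52.4% with 6 CpG dinucleotides. The CCAAT box of Bcan began 153 bases before the start and its GC box, on the opposite strand, 82 bases before it. In Tnc the GC box began 167 bases and the TATA box 126 bases before the start. Such matches are common, being found in 33.8% (CCAAT), 32.7% (GC box) and 12.4% (TATA box) of the windows. Upstream stretches were on file for 8 of the 10 genes, with Hapln4 and Has3 without an entry.

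The deposited values are gene counts scaled to the size of each library (CPM). The estimated depth was 31600000 to 46400000 reads per library, where 3 reads equal 0.0646 to 0.0950 CPM (counting error only). RNA of the targeted gene, Rag1, was higher and not lower under the Rag1-/- label. Rag1 was measured at 0.236, 0.388 and 0.115 CPM in WT, and at 2.60, 4.02 and 2.90 CPM under the Rag1-/- label (log2 difference 3.30, standard error 0.31, adjusted p = 0.0120 by limma-trend). Its adjusted limma-trend p was 0.113, 0.0697 and 0.192 without Rag1-/- replicates 1, 2 and 3, 0.131 without the trend and 0.326 with ordinary variances, with log2 differences of 3.12 to 3.42. The table holds 1 value per gene, so it does not show from which part of Rag1 these reads came. Every direction given for "Rag1-/-" therefore rests on the label. The X-inactivation transcript Xist reached 172 and 177 CPM in the first pair of WT replicates, 1 and 2, but no more than 2.93 CPM elsewhere. High Xist was thus found only in WT libraries, so what goes with it, such as sex, cannot be fully told apart from genotype. In addition, 2 libraries stood apart in tissue composition. A list of 8 brainstem neuron markers, all detected in every library, summed to 88.7 CPM in WT replicate 3 and 80.2 CPM in Rag1-/- replicate 2 against 124 to 217 CPM in the others. The hindbrain patterning gene Hoxb3 was at 0.412 CPM in Rag1-/- replicate 2 and at 2.5 CPM or more elsewhere. A list of 8 cerebellar neuron markers, of which 7 were in the table, summed to 448 CPM in WT replicate 3 and 196 CPM in Rag1-/- replicate 2 against 114 to 142 CPM in the others.

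No matrix gene was shown to differ between the genotypes once the number of genes tested was taken into account. None of the 10 passed an adjusted p of 0.05 by limma-trend, a threshold that 8 of the 16762 tested genes, or 0.0477%, passed. At a limma-trend p of 0.05 or less before adjustment, Bcan and Ncan were higher in the libraries labelled Rag1-/- and no matrix gene was lower, a threshold that 2.27% of all tested genes passed in the higher and 9.29% in the lower direction. That background split depended on the scaling: the counts over all genes were 380 higher and 1558 lower on the deposited values, 846 and 693 after median-of-ratios rescaling, and 855 and 640 after quantile normalization, while the same 2 matrix genes were counted higher under each. Log2 differences of the 10 genes ran from -0.16 (Hapln4) to 0.20 (Hapln1), with 6 above and 4 below 0. Their median was 0.042, beside -0.051 over all tested genes, and their median size without regard to sign was 0.067, beside 0.088. The summed level of the 10 genes was 828, 871 and 830 CPM in WT and 863, 859 and 897 CPM in Rag1-/- libraries. The count of 2 depended on the model and on single libraries. It was 0 without the trend (unadjusted p of 0.0523 for Bcan and 0.0961 for Ncan by limma), 0 with a replicate block (0.0649 and 0.0793), and 1 with a term for the libraries of high Xist, where neither Bcan (0.0706) nor Ncan (0.0797) was the gene that passed. It was 1 without WT replicate 1 or Rag1-/- replicate 1 (Ncan) and without WT replicate 3 or Rag1-/- replicate 2 (Bcan), it was 2 without WT replicate 2 but with Hapln1 in place of Ncan, and it was 3 without Rag1-/- replicate 3 (Bcan and Ncan higher, Hapln4 lower). It was 0 when WT replicate 3 and Rag1-/- replicate 2, which stood apart, were both left out.

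**Figure D1:**
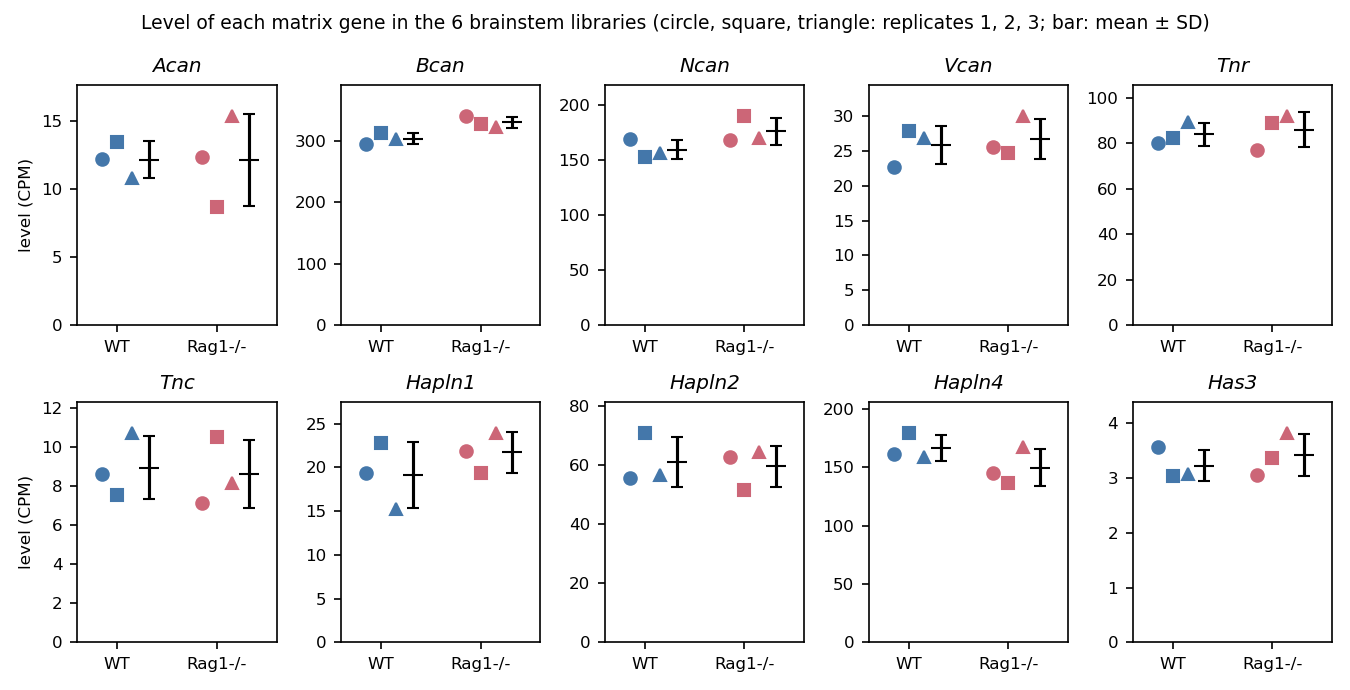
Level in CPM (y axis, from 0, a separate scale for each gene) of the 10 matrix genes in the 3 WT (blue) and 3 Rag1-/- (red) libraries; each symbol is 1 library and the bar is the group mean ± SD. Of the 10 panels, only Bcan has every Rag1-/- library (322 to 340 CPM) above every WT library (295 to 312 CPM).

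Among the lecticans, brevican and neurocan transcripts were 1.09 and 1.11 times their WT means in the Rag1-/- libraries, and aggrecan and versican transcripts were at nearly equal group means. Bcan (chromosome 3, 87987531 to 88000356, minus strand) encodes brevican, the major lectican of the adult brain, which also occurs at nodes of Ranvier and around synapses. It was at 295, 312 and 302 CPM in WT and at 340, 327 and 322 CPM in Rag1-/- libraries. All 3 Rag1-/- values thus lay above all 3 WT values, as in 3.98% of the tested genes in this direction and 18.4% in either direction. The means were 303 ± 8.45 CPM (SD, n = 3) and 329 ± 9.57 CPM (SD, n = 3), for a log2 difference of 0.12 (standard error 0.04, 95% interval 0.02 to 0.22) with an unadjusted p of 0.020 and an adjusted p of 0.373 by limma-trend. By exact permutation (two-sided) p was 0.1, which is the smallest value possible with 3 libraries against 3. Across leaving out each library in turn, the log2 difference of Bcan stayed between 0.10 and 0.14, and its unadjusted limma-trend p was 0.0818 without WT replicate 1 and 0.0727 without Rag1-/- replicate 1. Markers of mature oligodendrocytes moved in the same direction: the 10 markers summed to 20800, 24000 and 21800 CPM in WT and to 27900, 26700 and 26700 CPM in Rag1-/- libraries. Of these 10 markers, 9 were higher at a limma-trend p of 0.05 or less before adjustment, beside 2.27% of all tested genes, and none passed after adjustment. The sums of oligodendrocyte precursor and astrocyte markers, given with the other marker lists, were also higher in every Rag1-/- library than in any WT library. The largest astrocyte marker, Slc1a2, lies on the chromosome of Rag1. It was at 1640, 1700 and 1520 CPM in WT and at 1730, 1800 and 1770 CPM in Rag1-/- libraries. The astrocyte list overlapped on the mean of log2(CPM + 0.1), at 8.26, 8.35 and 8.39 in WT and 8.41, 8.39 and 8.33 in Rag1-/- libraries. On the mean of log2(CPM + 0.1) the mature oligodendrocyte list stood at 9.67, 9.81 and 9.67 in WT and at 9.95, 9.95 and 9.97 in Rag1-/- libraries. As the oligodendrocyte list itself separated the genotypes, its part in the difference of Bcan cannot be told apart from that of genotype, and in whole tissue a change in the number of cells of a type cannot be told apart from a change in RNA per cell.

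Ncan (chromosome 8, 70093085 to 70120844, minus strand) encodes neurocan, a lectican that is abundant in the developing brain. It was at 169, 153 and 156 CPM in WT and at 168, 190 and 170 CPM in Rag1-/- libraries. The groups overlapped, because WT replicate 1 lay between Rag1-/- replicates 1 and 3, and the highest value was that of Rag1-/- replicate 2, which stood apart in composition. The means were 159 ± 8.56 and 176 ± 12 CPM (SD, n = 3 each), and the log2 difference was 0.14 (standard error 0.06, 95% interval 0.01 to 0.28, unadjusted p = 0.0407 and adjusted p = 0.419 by limma-trend). It was 0.09 without Rag1-/- replicate 2 and 0.08 without that library and WT replicate 3. The unadjusted limma-trend p of Ncan was 0.121 without WT replicate 2, 0.0855 without WT replicate 3 and 0.153 without Rag1-/- replicate 2.

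Acan (chromosome 7, 79053483 to 79115099, plus strand) encodes aggrecan, the lectican most closely tied to perineuronal nets. It was at 12.2, 13.5 and 10.8 CPM in WT and at 12.4, 8.68 and 15.4 CPM in Rag1-/- libraries. The group means were nearly equal, 12.2 ± 1.37 and 12.1 ± 3.37 CPM (SD, n = 3 each), while the Rag1-/- group held both the lowest and the highest library, replicates 2 and 3. The log2 difference was -0.04 with a 95% interval of -0.46 to 0.38, and its sign turned under both other scalings (0.0082 and 0.01) and without Rag1-/- replicate 2 (0.18) or WT replicate 2 (0.04). Acan varied most of the 10 genes, with a coefficient of variation of 18.9% over the 6 libraries, beside 5.24% for Bcan.

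Vcan (chromosome 13, 89655310 to 89742512, minus strand) encodes versican, which occurs at nodes of Ranvier and in the matrix made by oligodendrocyte precursors. It was at 22.7, 27.8 and 26.9 CPM in WT and at 25.5, 24.7 and 30 CPM in Rag1-/- libraries, with overlapping groups. The log2 difference was 0.05 (95% interval -0.17 to 0.27), and it was -0.04 without WT replicate 1 and -0.03 without Rag1-/- replicate 3. Of the summed CPM of the 4 lecticans, Bcan took 59.1% to 62.3%, Ncan 30.2% to 34.5%, Vcan 4.49% to 5.59% and Acan 1.58% to 2.87%.

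The tenascins, large glycoproteins that bind lecticans, did not separate the genotypes. Tnr (chromosome 1, 159523769 to 159924922, plus strand) encodes tenascin-R, the cross-linker of perineuronal nets, which oligodendrocytes and some neurons make. It was at 80.0, 82.1 and 89.4 CPM in WT and at 77.1, 88.9 and 92.0 CPM in Rag1-/- libraries, and the Rag1-/- values spanned the whole WT range. The log2 difference was 0.03 (95% interval -0.13 to 0.20), and -0.02 without Rag1-/- replicate 3. Tnc (chromosome 4, 63959785 to 64047015, minus strand) encodes tenascin-C, a glycoprotein of developing and reactive glia. It was at 8.59, 7.52 and 10.7 CPM in WT and at 7.13, 10.5 and 8.17 CPM in Rag1-/- libraries. In both groups the highest library was the one with the most cerebellar marker transcripts, WT replicate 3 and Rag1-/- replicate 2. The log2 difference of Tnc was -0.06 (95% interval -0.43 to 0.31), with the opposite sign after quantile normalization (0.007), without WT replicate 3 (0.08) and without Rag1-/- replicate 1 (0.07).

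Of the link proteins, Hapln1 had the largest positive and Hapln4 the largest negative log2 difference of the 10 genes, and neither passed an unadjusted p of 0.05 with all 6 libraries and no further term. Hapln1 (chromosome 13, 89540636 to 89611832, plus strand) encodes the link protein of cartilage and of perineuronal nets. It was at 19.3, 22.8 and 15.2 CPM in WT and at 21.9, 19.3 and 23.9 CPM in Rag1-/- libraries. WT replicate 3 was the lowest of all 6, and the other WT values lay within the range of the Rag1-/- values. The log2 difference was 0.20 (standard error 0.14, 95% interval -0.12 to 0.52, unadjusted p = 0.193 and adjusted p = 0.596 by limma-trend), and it was 0.04 without WT replicate 3 and 0.34 without WT replicate 2, where the unadjusted limma-trend p was 0.0238. With a term for the libraries of high Xist it was 0.51 (unadjusted p = 0.00465 and adjusted p = 0.123 by limma-trend), a fit in which WT replicate 3, the lowest library for Hapln1, is the only WT library of low Xist.

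Hapln4 (chromosome 8, 70083529 to 70090862, plus strand) encodes a link protein of nets in the brainstem and cerebellar nuclei, where it partners brevican. It was at 161, 179 and 159 CPM in WT and at 145, 136 and 167 CPM in Rag1-/- libraries. Rag1-/- replicates 1 and 2 lay below every WT library and Rag1-/- replicate 3 lay within the WT range. The means were 166 ± 10.9 and 149 ± 16.2 CPM (SD, n = 3 each), and the log2 difference was -0.16 (standard error 0.08, 95% interval -0.34 to 0.02, unadjusted p = 0.0739 and adjusted p = 0.472 by limma-trend). Its unadjusted limma-trend p was 0.00705 without Rag1-/- replicate 3, where the log2 difference was -0.25, and the difference was -0.09 without Rag1-/- replicate 2.

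Hapln2 (chromosome 3, 88021750 to 88027511, minus strand) encodes the link protein of nodes of Ranvier. It was at 55.5, 70.7 and 56.7 CPM in WT and at 62.7, 51.4 and 64.3 CPM in Rag1-/- libraries, with the highest library in the WT group and the lowest in the Rag1-/- group. The log2 difference was -0.03 (95% interval -0.28 to 0.22), and 0.01 under either other scaling. Has3 (chromosome 8, 106870242 to 106882902, plus strand), a synthase at the cell surface, was the lowest of the set, at 3.56, 3.04 and 3.08 CPM in WT and 3.06, 3.36 and 3.82 CPM in Rag1-/- libraries, or 106 to 151 reads. Its groups overlapped and its log2 difference was 0.08 (95% interval -0.21 to 0.37), or -0.0045 without Rag1-/- replicate 3.

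**Figure D2:**
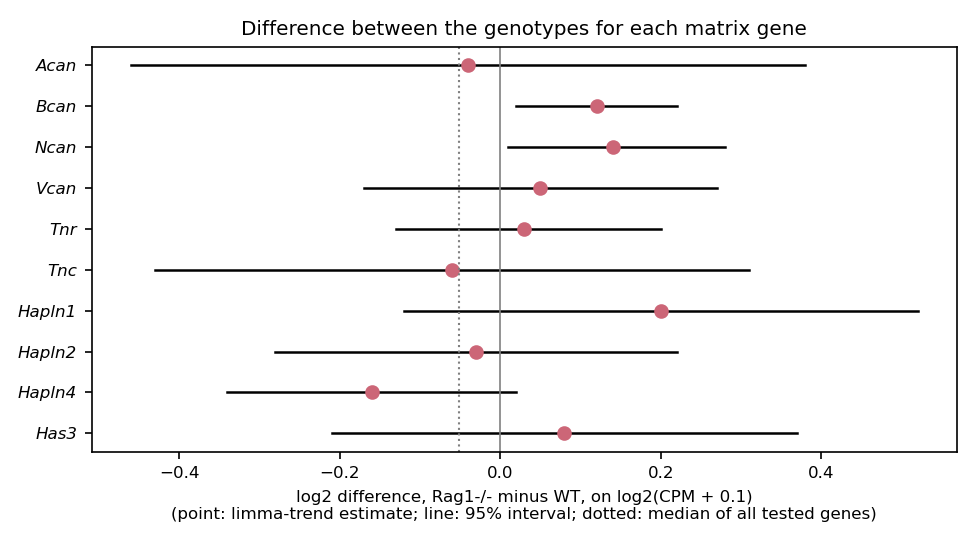
Log2 difference between the genotypes (x axis, Rag1-/- minus WT, on log2(CPM + 0.1)) for each matrix gene; points are limma-trend estimates from 3 libraries against 3, lines their 95% intervals, and the dotted line the median of all tested genes (-0.051). The intervals of Bcan (0.02 to 0.22) and Ncan (0.01 to 0.28) lie above 0 before adjustment for the number of genes tested, and the other 8 cross 0.

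To compare levels between genes, CPM were divided by the length of the longest reference transcript linked to RefSeq. On this scale of CPM per kilobase, Bcan led the set at 96.5 ± 2.69 in WT and 105 ± 3.05 in Rag1-/- libraries (SD, n = 3 each). Hapln4 followed at 45.6 and 40.9, Hapln2 at 35.6 and 34.8, Ncan at 22.1 and 24.5, and Tnr at 6.87 and 7.05 CPM per kilobase (WT and Rag1-/- means). Lower levels were those of Hapln1 at 3.34 and 3.80, Vcan at 2.08 and 2.15, Acan at 1.66 and 1.65, Tnc at 1.26 and 1.21, and Has3 at 0.546 and 0.577 CPM per kilobase. Most neighbours in this order had no overlapping values over the 6 libraries. The exceptions were Hapln4 and Hapln2, Vcan and Acan, and Acan and Tnc. Within each library Hapln4 was above Hapln2 and Vcan above Acan in 6 of 6, whereas Acan was above Tnc in 4 of 6. The place of Vcan depends on which of its 5 reference transcripts, of 2273 to 12427 bases, the reads come from: with the shortest length for all of them its mean would be 11.6 CPM per kilobase.

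**Figure D3:**
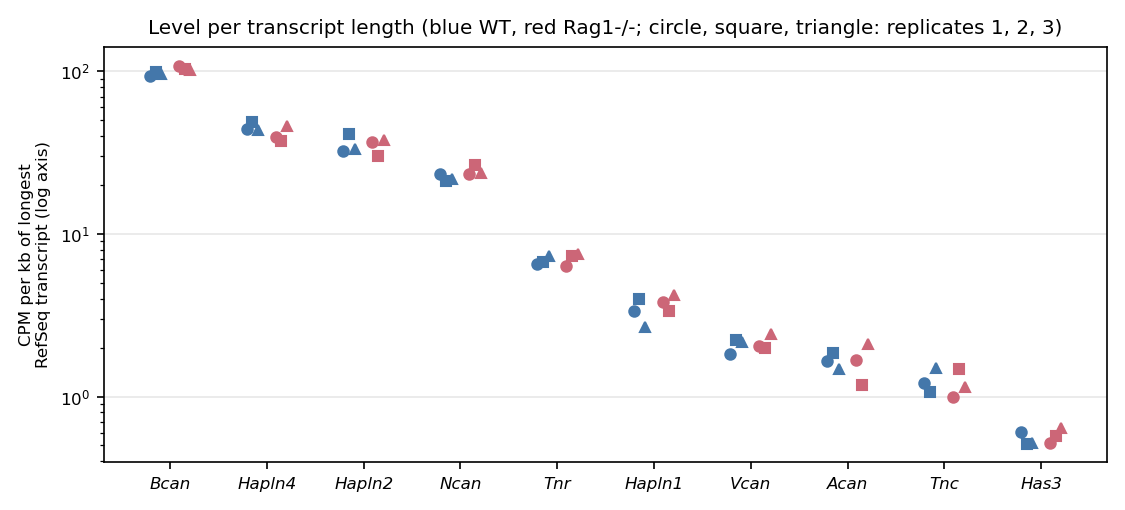
Level of each matrix gene in CPM per kilobase of its longest RefSeq transcript (y axis, log scale) in the 6 libraries, WT in blue and Rag1-/- in red, genes ordered by mean. Levels span from 0.514 (Has3) to 108 (Bcan) CPM per kilobase, and the 2 genotypes lie side by side at every gene.

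In the mouse genome each lectican gene has a link protein gene as its neighbour, and the ratio of the 2 transcripts was compared between genotypes in 4 exact two-sided permutation tests. No gene of the table lay between the members of any of these pairs. Bcan and Hapln2 lie 21393 bases apart on the same strand. Their CPM ratio was 5.32, 4.41 and 5.33 in WT and 5.42, 6.35 and 5.0 in Rag1-/- libraries (exact permutation p = 0.4, 0.8 after Benjamini-Hochberg adjustment over the 4). Ncan and Hapln4 are on opposite strands 2222 bases apart. Their ratio was 1.05, 0.853 and 0.984 in WT and 1.16, 1.40 and 1.02 in Rag1-/- libraries, with means of 0.961 ± 0.0985 and 1.19 ± 0.194 (SD, n = 3 each; exact permutation p = 0.2, adjusted 0.8). Vcan and Hapln1, 43477 bases apart on opposite strands, had a ratio of 1.16 to 1.28 in 5 libraries and 1.77 in WT replicate 3 (exact permutation p = 0.8, adjusted 0.9). Acan lies 1927 bases from Hapln3, a link protein gene that was near the low end of detection here (0.606 ± 0.101 CPM in WT and 0.650 ± 0.168 CPM in Rag1-/- libraries, SD, n = 3 each). Their ratio ranged from 13.7 in Rag1-/- replicate 2 to 25.2 in Rag1-/- replicate 1 (exact permutation p = 0.9, adjusted 0.9). The groups overlapped in each of the 4 ratios, and with 3 libraries against 3 the smallest p this test can give is 0.1, so none could have passed 0.05.

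Several of the genes differed more between mice of a genotype than between genotypes. In WT, replicate 2 held the highest value of 6 genes (Acan, Bcan, Vcan, Hapln1, Hapln2 and Hapln4), and in the Rag1-/- group replicate 2 held the lowest value of 5 (Acan, Vcan, Hapln1, Hapln2 and Hapln4). WT replicate 2 also had the highest level of the 8 brainstem neuron markers in its group (3.82, the mean of log2(CPM + 0.1) over the list), and Rag1-/- replicate 2 the lowest in its group (1.75). Other libraries did not follow that order: Rag1-/- replicate 3 held the highest value of 7 genes with a list mean of 3.63, below the 4.13 of Rag1-/- replicate 1, and WT replicate 3, with the lowest list mean of its group (2.61), held the lowest value of 3 genes, beside 4 for WT replicate 1. The relation of each gene to that list, on the log2 scale, was examined over the 6 libraries, as part of 30 correlations of the 10 genes with 3 marker lists (brainstem neuron, cerebellar neuron and mature oligodendrocyte). Tnc ran against the list, with Pearson's r = -0.93 (permutation p = 0.0111, 0.167 after Benjamini-Hochberg adjustment over the 30) and Spearman's rho = -0.94 (permutation p = 0.0167, adjusted 0.251). Without the 2 libraries farthest from the median of the list, WT replicate 3 and Rag1-/- replicate 2, r for Tnc was -0.98. Acan ran with the list (r = 0.85, permutation p = 0.0444, adjusted 0.236; rho = 0.77, permutation p = 0.103, adjusted 0.510), but r was -0.03 without these 2 libraries, so the relation rests on them. Hapln2 had r = 0.83 (permutation p = 0.0306, adjusted 0.236) and rho = 0.77 (permutation p = 0.103, adjusted 0.510), with r = 0.60 without the same 2. None of the 30 passed adjustment. The smallest p that 6 libraries allow is 0.00278, which adjusted to 0.0834 here, so a lone relation of any strength could not have passed. All points of a library share its depth and dissection.

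For Hapln1, Ncan, Tnr, Hapln4, Vcan, Bcan and Has3 the coefficient with the brainstem neuron list was between -0.57 (Tnr) and 0.62 (Hapln1), with permutation p from 0.242 to 0.8. The mature oligodendrocyte list put the genotypes apart, so no pooled coefficient is given for it. WT replicate 3 and Rag1-/- replicate 2 were farthest on the cerebellar list, as on the brainstem list. With the cerebellar list Tnc had r = 0.91 (permutation p = 0.00278, adjusted 0.0834), and 0.99 without these 2 libraries. Hapln1 had r = -0.90 (permutation p = 0.0472, adjusted 0.236), and -0.31 without them. The other genes had permutation p from 0.225 to 0.947 with this list. The mean log2(CPM + 0.1) of the cerebellar list was 3.02, 2.79 and 5.42 in WT and 2.63, 4.11 and 2.95 in Rag1-/- libraries, and Tnc followed the same order in all 6, from 7.13 CPM in Rag1-/- replicate 1 to 10.7 CPM in WT replicate 3. The potassium channel and parvalbumin markers of fast-spiking neurons, among the cells that nets surround, summed to 1730, 1990 and 1790 CPM in WT and to 1800, 1560 and 1960 CPM in Rag1-/- libraries, lowest in Rag1-/- replicate 2, the library with the lowest Acan. Astrocyte markers summed to 4650 to 4980 CPM in WT and 5000 to 5200 CPM in Rag1-/- libraries, and oligodendrocyte precursor markers to 884 to 936 and 1000 to 1030 CPM. The sums of both lists, and of forebrain neuron markers (39.7 to 55.7 and 32.7 to 38.0 CPM, most of it Ppp1r1b), did not overlap between the genotypes. On the mean of log2(CPM + 0.1), which weighs the genes equally, the astrocyte and forebrain lists overlapped, and 1 of the 10 astrocyte markers was higher (beside 2.27% of all tested genes) and 1 of the 6 forebrain markers, Ppp1r1b, lower (beside 9.29%) before adjustment. General neuron markers summed to 5130 to 5820 CPM in WT and 5040 to 5770 CPM in Rag1-/- libraries, microglia markers to 212 to 244 and 218 to 235 CPM, endothelial and mural markers to 235 to 294 and 272 to 295 CPM, and meningeal fibroblast markers to 220 to 310 and 187 to 279 CPM, all with overlap. The part of these cells in the level of the matrix genes was not tested.

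**Figure D4:**
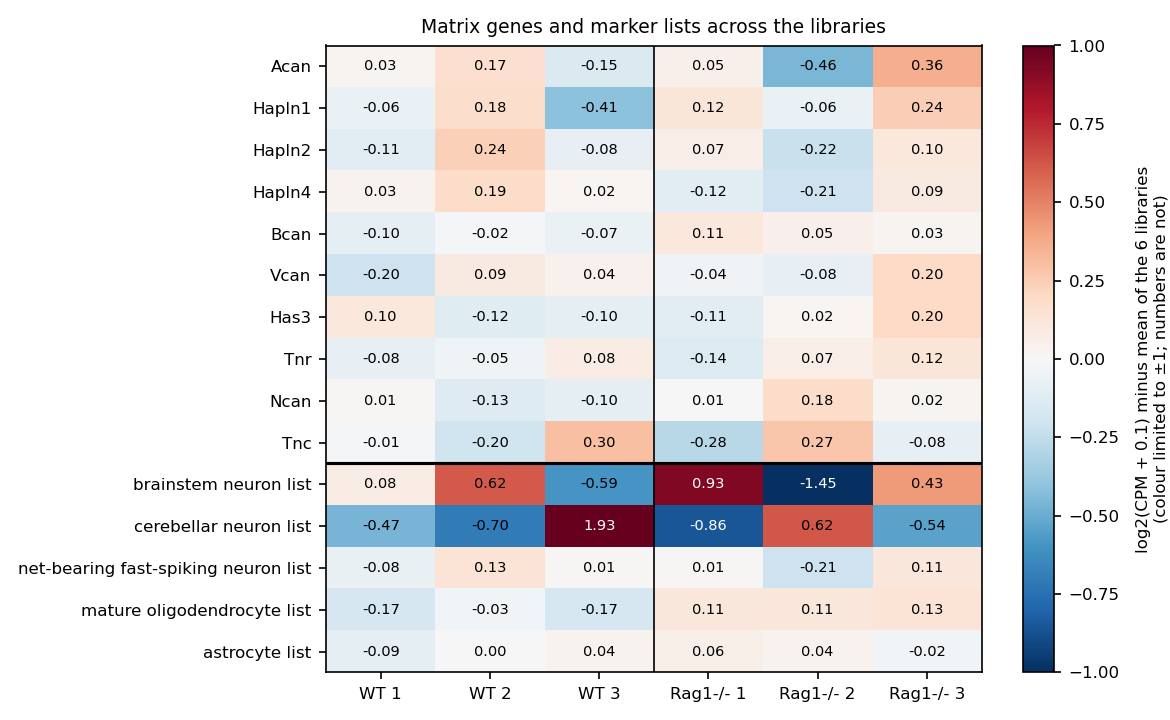
Each cell gives log2(CPM + 0.1) of a matrix gene, or its mean over a marker list, in 1 library (columns, WT left and Rag1-/- right) minus the mean of the 6 libraries; colour stops at ±1 and the printed numbers do not. Acan is lowest (-0.46) and Tnc raised (0.27) in Rag1-/- replicate 2, where the brainstem neuron list is lowest (-1.45), and the mature oligodendrocyte list is below 0 in every WT library and above 0 in every Rag1-/- library.

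Genes that build, cut or bind this matrix were taken from a list of 71 further genes, of which 69 were in the table and all 69 tested. None passed an adjusted p of 0.05 by limma-trend. At an unadjusted p of at most 0.05, 1 was higher and 7 were lower in Rag1-/- libraries, 11.6% of the list beside 11.6% of all tested genes (2.27% higher and 9.29% lower). After median-of-ratios rescaling the split was 1 higher and 3 lower, and after quantile normalization 2 and 2. Without Rag1-/- replicate 1 the count was 3 higher and 1 lower, without WT replicate 2 it was 2 higher and 11 lower, and with a term for the libraries of high Xist it was 2 higher and 12 lower. Over all tested genes the same fits gave 243 higher and 870 lower, 394 and 1631, and 664 and 2065. The median log2 difference of the list was -0.062, beside -0.051 over all genes.

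Of the hyaluronan receptors, binding proteins and hyaluronidases, 1 of 11 passed the unadjusted threshold (9.09%, beside 11.6% of all tested genes). This was Cd44, the principal cell-surface receptor for hyaluronan, carried by astrocytes and leukocytes among others. It was at 4.44, 4.95 and 6.38 CPM in WT and at 3.21, 2.82 and 3.02 CPM in Rag1-/- libraries. Every Rag1-/- library lay below every WT library, and the log2 difference was -0.77 (standard error 0.14, 95% interval -1.10 to -0.44), with unadjusted p = 0.000555 and adjusted p = 0.216 by limma-trend. With a term for the libraries of high Xist the log2 difference was -1.06 with an adjusted p of 0.0329 by limma-trend, a fit in which the genotype contrast rests on WT replicate 3 as the only WT library of low Xist. Over all alternatives but that one, the adjusted limma-trend p of Cd44 was 0.192 to 0.640. Cd44 lies on chromosome 2 (102811142 to 102901665), as does Rag1 (101638252 to 101649532). The part of DNA linked to the targeted allele in the value of Cd44 was not tested. Hmmr, an intracellular and surface hyaluronan-binding protein of dividing cells, was at 0.260, 0.388 and 0.460 CPM in WT and at 0.607, 0.507 and 0.513 CPM in Rag1-/- libraries, without overlap but on 11 to 21 reads (with an unadjusted limma-trend p of 0.0803, 0.478 after adjustment, and an unadjusted p of 0.0448 without WT replicate 3, 0.0244 after quantile normalization and 0.0366 without the trend). The log2 difference of Hmmr was 0.47, and 0.29 without WT replicate 1 (an unadjusted limma-trend p of 0.26).. Cemip, which takes part in hyaluronan breakdown, was at 8.70 ± 3.27 and 6.10 ± 1.21 CPM (SD, n = 3 each; adjusted p = 0.491 by limma-trend), with its highest value in WT replicate 3, and its log2 difference of -0.46 was -0.18 without that library and -0.63 without WT replicate 1 (an unadjusted limma-trend p of 0.0355). With the Xist term Cemip had a log2 difference of -1.04 (unadjusted p = 0.000851 and adjusted p = 0.0637 by limma-trend), and its unadjusted p with a replicate block was 0.0152 by limma-trend.

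Of the proteases that cleave lecticans and their inhibitors, 2 of 13 passed the unadjusted threshold (15.4%, beside 11.6% of all tested genes), in opposite directions. Adamts4, an aggrecanase that cuts aggrecan and brevican and is a marker of myelinating oligodendrocytes, was at 155, 160 and 147 CPM in WT and at 168, 183 and 182 CPM in Rag1-/- libraries. Its groups did not overlap, with a log2 difference of 0.20 (standard error 0.05, 95% interval 0.09 to 0.32, unadjusted p = 0.00355 and adjusted p = 0.319 by limma-trend), in the same direction as Bcan and the mature oligodendrocyte markers. Timp2, an inhibitor of metalloproteinases, was at 405, 373 and 390 CPM in WT and at 346, 374 and 360 CPM in Rag1-/- libraries (log2 difference -0.11, unadjusted p = 0.0467 and adjusted p = 0.429 by limma-trend). Its unadjusted limma-trend p was 0.189 after median-of-ratios rescaling and 0.146 after quantile normalization, and 0.170, 0.0773, 0.156 and 0.0915 without WT replicate 1, WT replicate 3, Rag1-/- replicate 1 and Rag1-/- replicate 3. With the Xist term the unadjusted limma-trend p of Timp2 was 0.136. Adamts8 was at 2.04 ± 0.289 and 1.6 ± 0.238 CPM (SD, n = 3 each; adjusted p = 0.484 by limma-trend), with an unadjusted limma-trend p of 0.0416 under the Xist term.

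Enzymes that build chondroitin sulphate, the sugar chain of the lecticans, gave 4 of 21 genes past the unadjusted threshold, all lower in Rag1-/- libraries, beside 9.29% of all tested genes in that direction, and their median log2 difference was -0.034. Chpf, a subunit of the chain polymerase, averaged 96.6 ± 2.27 CPM in WT and 89.1 ± 1.45 CPM in Rag1-/- libraries. B3galt6, which adds a sugar of the linker that joins chain to protein, was at 14.1 ± 0.949 and 12.2 ± 0.255 CPM, and Fam20b, a kinase that acts on the linker, at 116 ± 3.50 and 106 ± 2.87 CPM (SD, n = 3 each). Their log2 differences were -0.12, -0.21 and -0.12, each with an adjusted p of 0.372 by limma-trend. With the Xist term the unadjusted limma-trend p of Chpf and Fam20b was 0.134 and 0.208. They were also not past the unadjusted threshold after median-of-ratios rescaling (limma-trend p of 0.104 and 0.103) or quantile normalization (0.0681 and 0.0610), nor without WT replicate 1 (0.0742 and 0.0766) or Rag1-/- replicate 1 (0.0549 and 0.0667). B3galt6 was not past it without WT replicate 1 (0.0690), WT replicate 3 (0.0508) or Rag1-/- replicate 1 (0.0560). Dse, an epimerase that converts chondroitin to dermatan sulphate, completes the 4 and was named after its values were seen. It was at 4.46, 4.46 and 4.51 CPM in WT and at 3.29, 3.99 and 3.59 CPM in Rag1-/- libraries (log2 difference -0.30, adjusted p = 0.373 by limma-trend). None of these 4 overlapped between the groups, and they were the only ones of the 21 without overlap, or 19.0%. Over all tested genes 14.4% were lower without overlap, and 18.4% did not overlap in either direction. The 4 were picked by their p in the same data, so their lack of overlap is not a separate result.

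Of the other tenascins, proteoglycans and net partners, 1 of 12 passed the unadjusted threshold (8.33%, beside 11.6% of all tested genes). Otx2, a homeoprotein that the choroid plexus makes and net-bearing neurons take up, was at 10.7, 7.86 and 7.99 CPM in WT and at 5.23, 7.60 and 7.17 CPM in Rag1-/- libraries (log2 difference -0.41, unadjusted p = 0.0376 and adjusted p = 0.410 by limma-trend). The log2 difference was -0.24 without Rag1-/- replicate 1 (an unadjusted limma-trend p of 0.139) and -0.26 without WT replicate 1 (0.138), and the unadjusted limma-trend p was 0.0552 after median-of-ratios rescaling and 0.0681 after quantile normalization. The 6 choroid plexus markers, Otx2 among them, summed to 968, 1220 and 481 CPM in WT and to 548, 624 and 583 CPM in Rag1-/- libraries, and the part of that tissue in the value of Otx2 was not tested. Cspg4, the NG2 proteoglycan of oligodendrocyte precursors and pericytes, was at 31.9 ± 1.10 and 29.1 ± 1.81 CPM (SD, n = 3 each; adjusted p = 0.432 by limma-trend), with an unadjusted limma-trend p of 0.0501 that was 0.0367 without WT replicate 3 and 0.0347 without Rag1-/- replicate 3, but 0.142 without WT replicate 2, 0.179 without Rag1-/- replicate 1, 0.159 after median-of-ratios rescaling and 0.145 after quantile normalization. The log2 difference of Cspg4, -0.14, was -0.08 without Rag1-/- replicate 1. Of the 8 oligodendrocyte precursor markers, 4 were higher before adjustment (Gpr17, Olig1, Sox10 and Bmp4), beside 2.27% of all tested genes, and none after it, and the precursor receptor Pdgfra had a log2 difference of -0.05. Tnxb, tenascin-X, was at 2.34 ± 0.587 and 1.75 ± 0.0802 CPM (SD, n = 3 each; adjusted p = 0.473 by limma-trend), with a log2 difference of -0.37 that was -0.19 without WT replicate 3 and -0.54 without WT replicate 1 (an unadjusted limma-trend p of 0.0137), and -0.73 with the Xist term (an unadjusted limma-trend p of 0.00691).

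None of the 7 receptors for chondroitin sulphate and net components passed the unadjusted threshold, beside 11.6% of all tested genes. Their median log2 difference was -0.072, beside -0.051 over all genes. Plxna1, a semaphorin receptor subunit, was at 111 ± 6.74 and 101 ± 9.40 CPM (SD, n = 3 each; adjusted p = 0.480 by limma-trend), with an unadjusted limma-trend p of 0.0486 without WT replicate 2 and 0.0415 without Rag1-/- replicate 2, but 0.224 without WT replicate 3 and 0.303 without Rag1-/- replicate 1, where its log2 difference of -0.14 was -0.07. The receptor phosphatases Ptprf and Ptprs, which bind chondroitin sulphate on axons, were at 115 ± 7.06 and 107 ± 0.222 CPM and at 263 ± 13.3 and 250 ± 6.09 CPM (SD, n = 3 each; adjusted p = 0.509 and 0.568 by limma-trend). With the Xist term, a fit that rests on WT replicate 3, the log2 differences of Plxna1, Ptprf and Ptprs were -0.24, -0.19 and -0.15, with unadjusted limma-trend p of 0.0356, 0.00488 and 0.026. Without WT replicate 3 those of Ptprf and Ptprs were -0.04 and -0.03, compared with -0.09 and -0.07 with all libraries. Of the 5 genes for the other synthases, the other link protein and the sugar precursors none passed either, beside the same 11.6%. Has2, the main synthase of development, was at 0.307, 0.582 and 0.259 CPM in WT and at 0.289, 0.792 and 0.940 CPM in Rag1-/- libraries, or 9 to 33 reads (log2 difference 0.62, 95% interval -0.30 to 1.54, adjusted p = 0.567 by limma-trend). The log2 difference of Has2 ran from 0.35 without Rag1-/- replicate 3 to 1.06 without Rag1-/- replicate 1, where the unadjusted limma-trend p was 0.0138. Has1 was at 1.71 ± 0.160 and 1.46 ± 0.248 CPM (SD, n = 3 each; adjusted p = 0.614 by limma-trend). Per kilobase of transcript the synthases were ordered Has1 (0.756 CPM per kilobase, mean of the 6 libraries), Has3 (0.561) and Has2 (0.125).

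**Figure D5:**
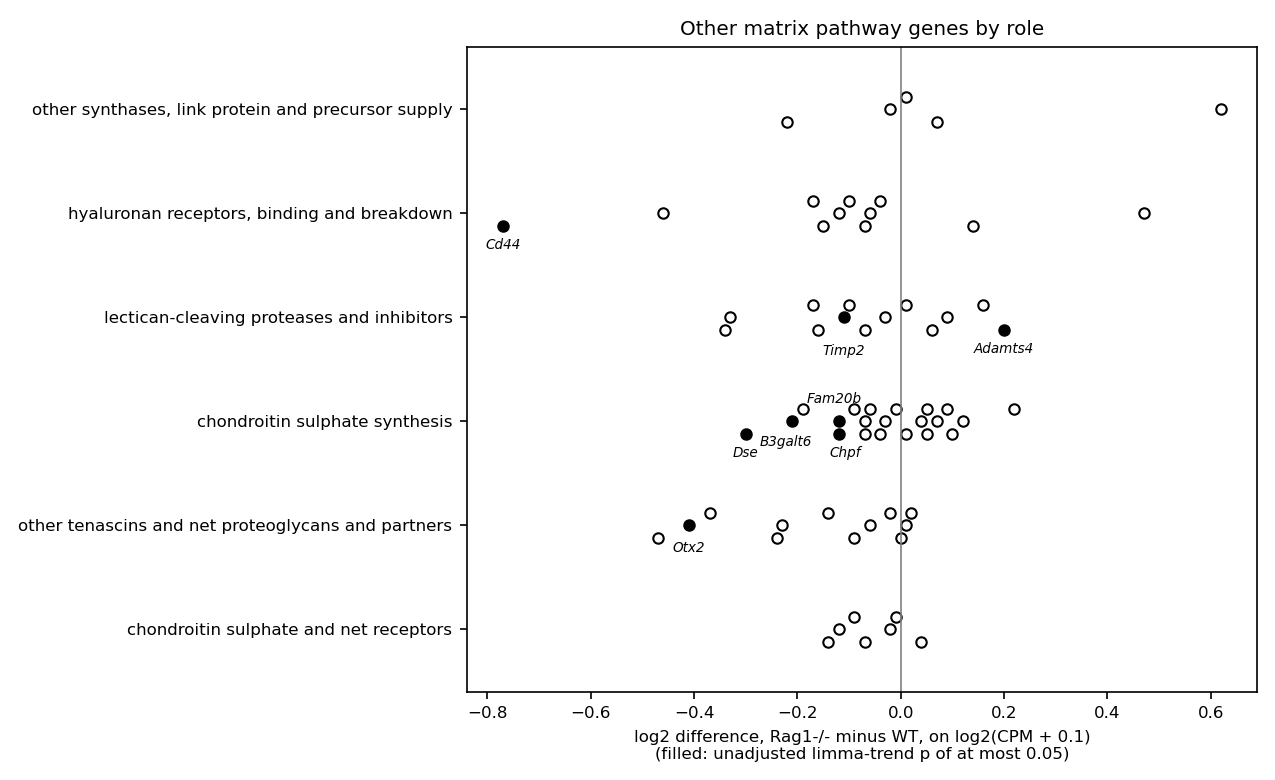
Log2 difference (x axis, Rag1-/- minus WT, on log2(CPM + 0.1)) of the 69 other matrix pathway genes, 1 point a gene, grouped by role (y axis; height within a row has no meaning). Filled and named points have a limma-trend p of 0.05 or less before adjustment: Adamts4 lies above 0 and the other 7 lie below it, with Cd44 (-0.77) farthest.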

How the data were processed

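Total RNA from 6 whole brainstems was sequenced (3 WT, 3 Rag1-/-). Per the methods, the authors aligned reads with STAR 2.5.3a to mm10, counted them on RefSeq transcripts in Partek Flow, scaled the gene counts to library size and deposited CPM, with 0.0001 as the lowest value of each library. The CPM of 1 read was read from steps among low values, of which 85.3% to 86.7% came out whole (tolerance 0.1 read). Read numbers and depths are therefore estimates, and counts were not modelled. The listed genes hold 79.1% to 80.4% of each library.

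The scale for tests was log2(CPM + 0.1), on which differences of low genes come out too small. Genes averaging 0.1 CPM or more over the libraries (16762) were fitted with limma-trend (limma 3.58.1, R 4.3.3), the model stated in the methods, adjusting by Benjamini-Hochberg over all of them, and 1296 genes were not tested. The step was tested on simulated data. Single values, ratios and correlations were tested by exact two-sided permutation (scipy 1.17.1). Correlations over 6 libraries used all orderings. Members, marker lists and pathway lists were chosen with earlier results of these data known. The genes named are all members, Rag1, link protein neighbours, and in each pathway role the 3 smallest p, with markers where a list is described. Coordinates are those of the table (mm10), with 1 base taken off the deposited stop. Lengths are from GENCODE transcripts. Alternatives were other pseudocounts, filters, scalings and variance models, a replicate block, a term for libraries over 100 CPM of Xist, leaving out each library, and, chosen after seeing the data, a brainstem neuron list term and leaving out WT replicate 3 and Rag1-/- replicate 2 together. Replicate numbers were not taken as pairs in the main model.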

Additional observations from a re-analysis of the deposited data

How the results depend on the processing

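No matrix gene passed an adjusted p of 0.05 by limma-trend under any alternative (smallest 0.123, Hapln1 with the Xist term). The count of matrix genes at an unadjusted p of at most 0.05 (2, Bcan and Ncan) was 0 without the trend, 1 (Bcan) with ordinary variances, 0 with a replicate block, 1 with the Xist term (Hapln1, neither of the 2), 3 with the brainstem neuron list term (Bcan, Ncan and, lower, Hapln4), 0 without both libraries that stood apart, and 1 to 3 on leaving out each library. The pathway list had 0 genes past the adjusted threshold, 1 (Cd44) with the Xist term and 0 to 0 on leaving out each library. At the unadjusted threshold its 8 genes became 4 after median-of-ratios rescaling, 4 after quantile normalization, 5 with the replicate block, 14 with the Xist term, and 4 to 13 on leaving out each library. Over all genes, the 8 past the adjusted threshold became 4 with pseudocount 0.01, 4 without a filter, 4 at a mean CPM of at least 1, 5 after quantile normalization, 2 without the trend, 0 with ordinary variances (1772 at an unadjusted p of at most 0.05), 3 with the replicate block, 134 with the Xist term, 24 without both libraries that stood apart, and 2 to 24 on leaving out each library, with 24 without WT replicate 3. The 1938 at the unadjusted threshold became 2729 with the Xist term and 1113 to 2025 on leaving out each library. The cause of these shifts was not tested. Same-numbered libraries had correlations of deviations of 0.0926, -0.22 and -0.0183, and not every library correlated best with its own number. Such correlations cannot show whether these libraries shared a litter or a batch.

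Of 110 planned values of the matrix genes, not counting those that leave out a library, 9 changed sign: Acan (-0.04) was 0.0082 after median-of-ratios rescaling, 0.01 after quantile normalization and 0.13 with the Xist term; Hapln2 (-0.03) was 0.01, 0.01 and 0.06 under these; Tnc (-0.06) was 0.007 after quantile normalization; Vcan (0.05) was -0.01 and Tnr (0.03) was -0.06 with the Xist term. Without both libraries that stood apart Acan was 0.10, Hapln2 0.02 and Hapln3 -0.05. Leaving out each library turned 10 of 60 values and gave -0.23 to 0.18 for Acan, -0.04 to 0.11 for Vcan, -0.02 to 0.11 for Tnr, -0.21 to 0.08 for Tnc, -0.10 to 0.08 for Hapln2, -0.0045 to 0.15 for Has3 and -0.09 to 0.23 for Hapln3. Bcan, Ncan, Hapln1 and Hapln4 kept their direction in all 19 alternatives. A test on counts was not run. Low genes such as Has2 (9 to 33 reads) are limited by depth.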
